A study of Mus musculus with 20 samples.

Results

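The genes described here are 32 genes of adult skeletal muscle, taken by symbol from a table of 22090 genes measured in mouse skin. They were set by gene function, as parts of the contractile apparatus and of its calcium and fuel supply. For this description they were set in 5 role groups. The groups are 7 genes of the thick filament and its light chains, 5 of the thin filament, 9 of the Z-disc, titin and costamere, 6 of calcium handling and excitation-contraction coupling, and 5 of energy metabolism.

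Mouse skin lies on the panniculus carnosus, a thin sheet of striated muscle beneath the dermis and the fat. In each fiber, myosin thick filaments pull on actin thin filaments that are anchored at Z-discs, and titin spans from the Z-disc into the thick filament. Calcium leaves the sarcoplasmic reticulum through the ryanodine receptor, binds troponin on the thin filament and is pumped back by a calcium ATPase. Fast fibers that use glycolysis and fast fibers that use more oxidative metabolism carry different myosin heavy chains and different forms of several partner proteins.

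RNA of 20 skin tissues was sequenced, with 8 normal skin (NS), 8 actinic keratosis (AK) and 4 cutaneous squamous cell carcinoma (cSCC) samples. All came from 8 hairless SKH-1 mice, females aged 7 months, of which 4 were exposed to ultraviolet radiation and 4 were not. The age is that at the start, and by the paper's methods tissues were taken after months of irradiation, so the mice were older by then. NS tissues came from exposed as well as unexposed mice, whereas AK and cSCC tissues came from exposed mice alone. By the protocol each exposed mouse gave 1 NS, 2 AK and 1 cSCC tissue, but the labels tie no tissue to a mouse and do not mark the NS of exposed mice, so the tissues were treated as independent and unpaired, and p-values may be too small. Samples are named by their group and the number in their label. The AK tissues were of different pathological grades, which the labels do not mark. The labels give daily irradiation and a HiSeq instrument, and the paper's methods give other details for both.

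Levels are CPM, read counts scaled to library size with TMM factors, which correct for library composition. Libraries held 775750 to 14055206 counts. In the smallest libraries 3 counts correspond to 3.78 CPM (AK 12) and 3.41 CPM (cSCC 20), and levels below these could not be told from 0 there. All libraries held keratinocyte transcripts, the 8 summed markers running from 3815 CPM in cSCC 21 to 19336 CPM in NS 8. Of the 4 cSCC libraries, 3 stood apart by other transcripts. cSCC 21 held heart transcripts, among them Actc1, cardiac actin, at 15454 CPM, cSCC 20 held the lung surfactant gene Sftpc at 22389 CPM, and hemoglobin made up 46.8% of the counts of cSCC 18. The comparisons of cSCC below are given with and without cSCC 21, because 13 of the 32 genes (Acta1, Actn2, Ttn, Xirp2, Myot, Des, Tcap, Smpx, Trdn, Ckm, Eno3, Pygm and Pgam2) are also known from heart.

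Promoter sequences are shown for 5 members. These members are the actin and light chain genes with the highest levels per length, the muscle creatine kinase gene, and a pair of neighboring fast myosin genes. The promoters are RefSeq sequences on build GRCm38.p6, from 250 bases before to 50 bases after a transcription start, and 23 of the 32 members had an entry. Trdn, Actn3, Tnnt3, Neb, Tcap, Myot, Ampd1, Myoz1 and Tnni2 had none. The sequences lie at chr8:123894726-123895025, minus strand (Acta1), chr7:127211358-127211657, plus strand (Mylpf), chr7:19410844-19411143, plus strand (Ckm), chr11:67237562-67237861, plus strand (Myh4) and chr11:67199852-67200151, plus strand (Myh1), and each is written 5′ to 3′ on its gene's strand. Capitals mark CAGCTG, the E-box form bound by myogenic factors such as MyoD, the MEF2 motif, and the CArG box, the motif of serum response factor.
Acta1: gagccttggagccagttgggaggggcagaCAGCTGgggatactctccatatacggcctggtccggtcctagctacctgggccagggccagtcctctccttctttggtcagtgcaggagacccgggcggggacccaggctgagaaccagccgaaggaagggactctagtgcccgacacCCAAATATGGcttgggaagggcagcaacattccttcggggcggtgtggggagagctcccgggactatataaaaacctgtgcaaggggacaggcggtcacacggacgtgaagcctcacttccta
Mylpf: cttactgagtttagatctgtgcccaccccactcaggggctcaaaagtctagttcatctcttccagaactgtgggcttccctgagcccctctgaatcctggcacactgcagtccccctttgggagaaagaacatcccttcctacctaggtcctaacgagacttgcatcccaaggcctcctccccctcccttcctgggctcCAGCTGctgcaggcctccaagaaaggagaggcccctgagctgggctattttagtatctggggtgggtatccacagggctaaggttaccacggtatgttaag
Ckm: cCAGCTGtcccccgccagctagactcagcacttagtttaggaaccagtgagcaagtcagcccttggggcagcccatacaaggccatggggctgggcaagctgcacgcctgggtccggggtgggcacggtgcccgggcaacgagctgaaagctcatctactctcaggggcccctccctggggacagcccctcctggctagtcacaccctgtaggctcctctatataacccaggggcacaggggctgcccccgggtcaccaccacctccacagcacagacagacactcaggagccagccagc
Myh4: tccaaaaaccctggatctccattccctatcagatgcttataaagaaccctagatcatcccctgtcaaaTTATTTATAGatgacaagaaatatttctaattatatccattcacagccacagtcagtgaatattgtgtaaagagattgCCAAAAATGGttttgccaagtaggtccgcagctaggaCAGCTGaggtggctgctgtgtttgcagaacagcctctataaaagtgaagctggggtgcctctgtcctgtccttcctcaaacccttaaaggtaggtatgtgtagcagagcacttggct
Myh1: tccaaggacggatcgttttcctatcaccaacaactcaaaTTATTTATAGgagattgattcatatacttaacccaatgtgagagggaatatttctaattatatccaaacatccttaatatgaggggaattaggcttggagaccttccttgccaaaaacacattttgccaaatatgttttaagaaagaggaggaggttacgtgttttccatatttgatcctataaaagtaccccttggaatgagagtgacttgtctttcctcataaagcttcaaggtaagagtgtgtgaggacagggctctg

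CAGCTG was found in 13 of 23 member promoters (56.5%), and in 16.1% of all 27025 promoters of the same length. The MEF2 motif was found in 6 of 23 (26.1%), namely Xirp2, Ttn, Pgam2, Myh1, Myh4 and Pvalb, and in 3.26% of all promoters. Acta1 and Myh4 held a CArG box, which is 8.70% of the members against 1.57% of all promoters. The general E-box CANNTG, which includes CAGCTG, was about as frequent in member promoters (78.3%) as in all (72.1%). The given strand was searched, and each of these motif patterns reads the same on both strands. Among the 5 sequences shown, Myh4 held all 3 marked motifs, whereas the Myh1 sequence held the MEF2 motif alone. These are matches of letters in a short window and not measured binding sites.

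All 32 genes had counts, and 17 of them had counts in all 20 samples. Per kilobase of exon, the highest mean levels over NS and AK were those of Acta1, skeletal actin (589.5 CPM per kb), Mylpf, the fast regulatory light chain (372), Tnnt3, fast troponin T (361), Tnni2, fast troponin I (194), and Tcap, the cap of titin (159.5). The lowest was Cacna1s, the voltage sensor of the transverse tubule, at 0.0326 CPM per kb, with counts in 4 of the 16 NS and AK samples. In NS, Acta1 had the 73rd highest mean CPM of all genes of the table, on a scale that is not per length. Most genes varied together across samples, as the map of levels by gene and library shows, and NS 1 held the highest value of the NS and AK samples for 31 of the 32 genes, all but Actn2.

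**Figure D1:**
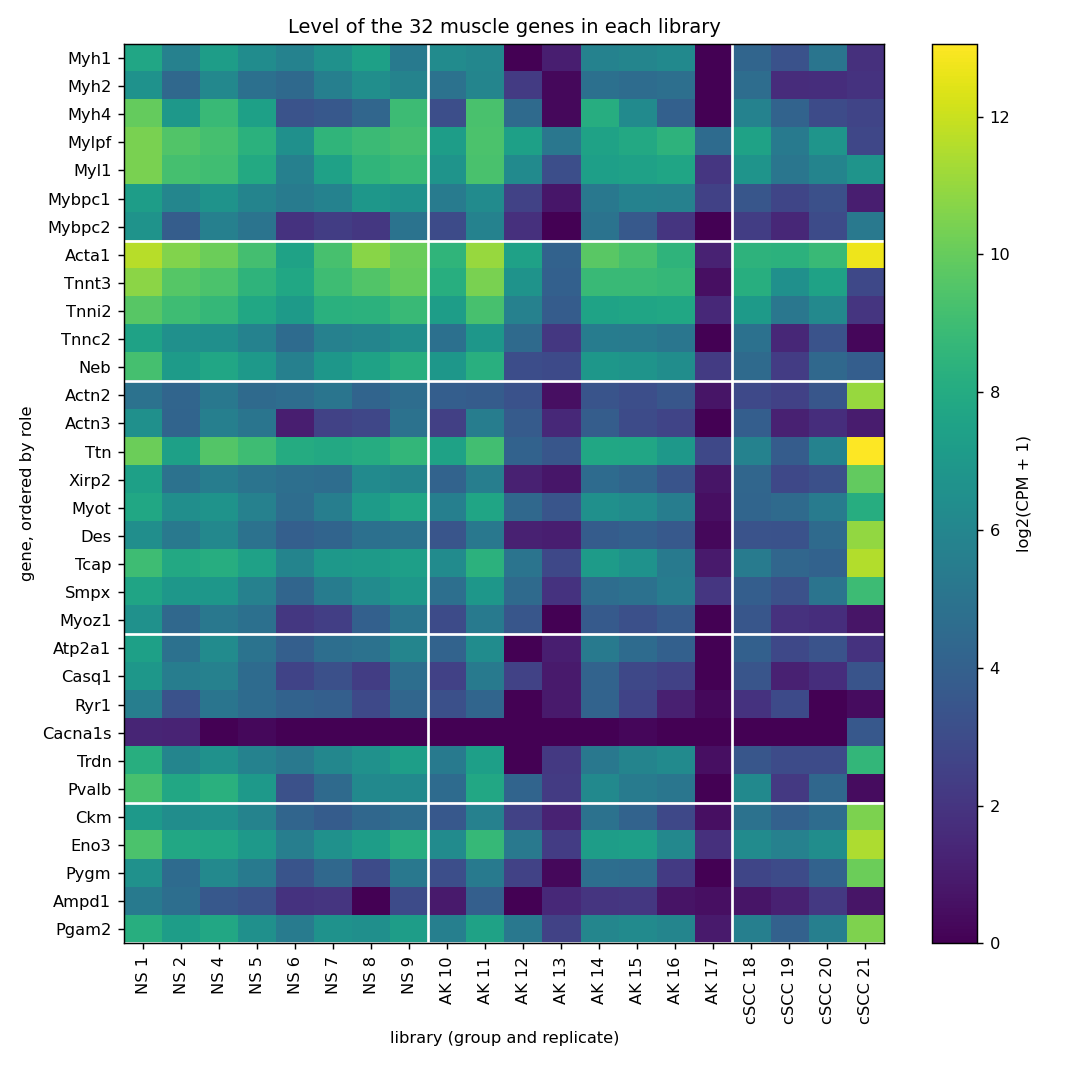
Levels of the 32 genes as log2(CPM + 1), with genes in rows by role and the 20 libraries in columns, white lines separating role groups and sample groups. AK 13 and AK 17 are dark in nearly all rows, and cSCC 21 is bright for genes also known from heart and dark for most of the others.

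The thick filament genes comprise the fast myosin heavy chains Myh1, Myh2 and Myh4, the light chains Mylpf and Myl1, and the myosin binding proteins Mybpc1 and Mybpc2. Mylpf ranged from 93.5 to 1362 CPM (median 527) in NS and from 22.6 to 656 CPM (median 177) in AK, and was 183 in cSCC 18, 38.7 in cSCC 19, 113 in cSCC 20 and 5.95 in cSCC 21. The AK range reached below the lowest NS, and cSCC 21 was the lowest of all 20 samples for this gene. Myl1, the essential light chain, ranged from 51.3 to 1378 CPM (median 403) in NS and from 3.20 to 628 CPM (median 136) in AK, and was 108 in cSCC 18, 33.4 in cSCC 19, 58.0 in cSCC 20 and 106 in cSCC 21. NS and AK overlapped widely for both light chains. Median levels of the other 5 genes in NS ran from 21.9 CPM (Mybpc2) to 146 CPM (Myh4). Myh4 spread widely, from 9.01 to 1011 CPM among the 8 NS. The 3 myosin genes lie side by side on chromosome 11 (GRCm38, GENCODE release M21, Myh2 at chr11:67171027-67197517, Myh1 at chr11:67200052-67224575 and Myh4 at chr11:67238029-67260446). They are closely related in coding sequence, so how reads were shared between them is uncertain.

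The thin filament genes comprise Acta1, the fast troponins Tnnt3, Tnni2 and Tnnc2, and Neb, nebulin, which runs along the thin filament. Acta1 ranged from 185 to 3176 CPM (median 1103) in NS and from 1.37 to 2126 CPM (median 363) in AK, and was 343 in cSCC 18, 334 in cSCC 19, 461 in cSCC 20 and 6859 in cSCC 21. The 3 cSCC samples other than cSCC 21 lay within the NS range, near its low end, and cSCC 21 lay above every other sample. Tnnt3 ranged from 217 to 1762 CPM (median 689) in NS and from 0.457 to 1397 CPM (median 349.8) in AK, and was 288 in cSCC 18, 94.5 in cSCC 19, 182 in cSCC 20 and 6.12 in cSCC 21. The lowest AK value, in AK 17, was 1 count. Tnnt3 and Tnni2 are neighbors on chromosome 7 (chr7:142498836-142516009 and chr7:142441808-142444410), and in cSCC 21 both were low although Acta1 was high there. Neb ranged from 51.3 to 597 CPM (median 164) in NS, and the cSCC values of 22.2, 3.95, 20.5 and 14.1 CPM all lay below the lowest NS.

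The Z-disc and costamere genes comprise the crosslinkers Actn2 and Actn3, the giant spring titin (Ttn), Tcap, the actin-binding scaffold Xirp2, myotilin (Myot), desmin (Des), Smpx and Myoz1, a calcineurin-binding Z-disc protein of fast fibers. Tcap ranged from 58.6 to 506 CPM (median 171) in NS and from 0.914 to 338 CPM (median 58.2) in AK, and was 41.7 in cSCC 18, 18.9 in cSCC 19, 15.9 in cSCC 20 and 2947 in cSCC 21. For Tcap, the 3 cSCC samples other than cSCC 21 lay below every NS. Myot ranged from 24.8 to 215 CPM (median 94.5) in NS and from 0.457 to 203 CPM (median 46.6) in AK, and was 18.1 in cSCC 18, 21.5 in cSCC 19, 42.1 in cSCC 20 and 285 in cSCC 21. The remaining genes of the group had NS medians from 23.2 CPM (Actn3) to 335 CPM (Ttn). Actn2 varied least among NS, from 17.4 to 36.6 CPM, while the myosin, actin and troponin genes varied several-fold.

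The calcium genes comprise Pvalb, the calcium buffer parvalbumin of fast fibers, the calcium store protein Casq1, the calcium pump Atp2a1, the release channel Ryr1, its partner Trdn, and Cacna1s. Pvalb ranged from 8.45 to 618 CPM (median 101) in NS and from 0 to 229 CPM (median 27.9) in AK, and was 72.2 in cSCC 18, 3.52 in cSCC 19, 19.3 in cSCC 20 and 0.331 in cSCC 21. Casq1 ranged from 4.26 to 119 CPM (median 24.1) in NS and from 0 to 41.2 CPM (median 4.92) in AK, and was 9.72 in cSCC 18, 1.32 in cSCC 19, 2.28 in cSCC 20 and 9.43 in cSCC 21. Both genes overlapped between NS and AK, and each was spread widely within NS. The metabolic genes comprise creatine kinase (Ckm), the glycolytic enzymes Eno3 and Pgam2, glycogen phosphorylase (Pygm) and AMP deaminase (Ampd1). Pgam2 ranged from 41.7 to 294 CPM (median 126) in NS and from 0.914 to 186 CPM (median 54.6) in AK, and was 48.6 in cSCC 18, 15.8 in cSCC 19, 48.9 in cSCC 20 and 1460.3 in cSCC 21. Eno3 ranged from 46.2 to 660.3 CPM (median 182) in NS and from 2.51 to 426 CPM (median 73.0) in AK, and was 77.8 in cSCC 18, 51.8 in cSCC 19, 84.2 in cSCC 20 and 2814 in cSCC 21. In both, cSCC 21 was the highest of the 20 samples, and the remaining cSCC samples lay at or below the lower part of the NS range.

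The log2 fold change of AK against NS was below 0 for all 31 tested genes, and 1 of them, Actn2, passed the test. Actn2, the alpha-actinin of the Z-disc, fell by 1.69 on the log2 scale (SE 0.45, n = 8 and 8, adjusted p = 0.0371, edgeR's quasi-likelihood test with Benjamini-Hochberg adjustment), which is 3.23 times lower. It ranged from 17.4 to 36.6 CPM (median 24.5) in NS and from 0.468 to 14 CPM (median 9.09) in AK, so the groups did not overlap. The next genes were Xirp2, with a log2 fold change of -1.93 ± 0.63 and an adjusted p of 0.0749 in edgeR, and Des, with -1.77 ± 0.60 and 0.0794. A gene was called where the adjusted p-value was under 0.05 and the fold change above 1.5 or below 0.67.

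So 1 of 31 members was called lower and 0 higher, where 2.38% of the 11677 genes tested were called lower and 2.26% higher. Cacna1s was not tested in any comparison because its counts were too low. The unadjusted p-value was under 0.05 for 12 of the 31 genes. The direction was shared more widely than the calls. The log2 fold change was below 0 in 31 of 31 members and in 53.0% of all genes tested. Its median was -1.34 for the members and -0.04 for all genes. The members varied together across NS and AK samples, so these 31 values are not independent of one another. The members' median was -2.33 with limma and -1.92 without AK 11. Single member values ran from -1.93 (Xirp2) to -0.83 (Myot). By role, the median was -1.34 for the thick filament, -1.17 for the thin filament, -1.49 for the Z-disc, -1.63 for the calcium genes and -1.49 for the metabolic genes. For 1 member, Actn2, every AK lay below every NS, as for 0.128% of all genes, and for 0 every AK lay above every NS, against 0.394% of all genes.

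The Actn2 call was lost when any 1 of 9 of the 16 libraries was left out (NS 1, 2, 4, 5 or 7, or AK 12, 14, 15 or 16), with log2 fold changes from -1.88 to -1.50 over all 16. AK 11 stood apart from the other AK. Without AK 11 the number of members called lower was 6, the calls of Des, Xirp2, Smpx, Ampd1 and Ckm being added to Actn2. In bulk tissue, fewer muscle cells in a sample and less RNA per muscle cell cannot be told apart.

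The spread of the muscle genes within a group was larger than the difference between NS and AK. Summed over the 32 genes, NS samples ranged from 1514 CPM (NS 6) to 15832 CPM (NS 1) with a median of 5899, a 10.5-fold range. AK samples ranged from 55.5 CPM (AK 17) to 9380.3 CPM (AK 11) with a median of 2198, a 169-fold range. The NS median was 2.68 times the AK median. AK 11 was second only to NS 1 among NS and AK and was the highest AK for 29 of the 32 genes.

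AK 13 and AK 17 formed the low end. Both were among the 3 lowest of the 16 samples for 31 of the 32 genes, AK 17 was below the lowest NS for 30 and AK 13 for 29. In AK 17 the 32 genes together had 243 of 4370902 counts, and 12 of them had none, among them the 3 fast myosins and Pvalb. That is 0.00556% of the library (95% Wilson interval 0.00490 to 0.00630, covering counting error only) against 1.92% in NS 1, a library of 4672951 counts. AK 12, the next lowest, was below the lowest NS for 22 genes, at a depth of 867219 counts. With AK 11 set aside, each other AK was below the NS median for 28 to 31 of the 32 genes.

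Fat lies above the muscle sheet. Of its genes, 6 of 7 tested had log2 fold changes below 0 in AK against NS (median -0.68, 2 with an unadjusted p-value under 0.05), as had 5 of 5 tested smooth muscle genes (median -0.91, 3 under 0.05), whereas 4 of 4 hemoglobin genes were above 0 (median 1.55, 3 under 0.05). None of these genes was called by edgeR. In single samples the order of fat and muscle could differ. The 9 adipocyte genes, among them Cfd, Fabp4 and Adipoq, summed to 1864 CPM in AK 13 and 1570.5 CPM in AK 17, the highest of the 8 AK, against 223 to 2454 CPM in NS. So the 2 AK samples with the fewest muscle transcripts held adipocyte transcripts in the upper part of the NS range. In every NS the muscle sum was above the fat sum. NS 4 and NS 5 had the lowest fat sums of the NS, at 246 and 223 CPM (NS median 917). Their muscle sums were 7104 and 3797 CPM, above and below the NS median of 5899 CPM. The 8 smooth muscle genes summed to 54.1 to 214 CPM in NS and 22.7 to 106 CPM in AK, and were 71.1 and 51.2 CPM in AK 13 and AK 17. The part of these transcripts in the AK difference was not tested, except that 1 member was again called with hemoglobin genes left out.

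**Figure D2:**
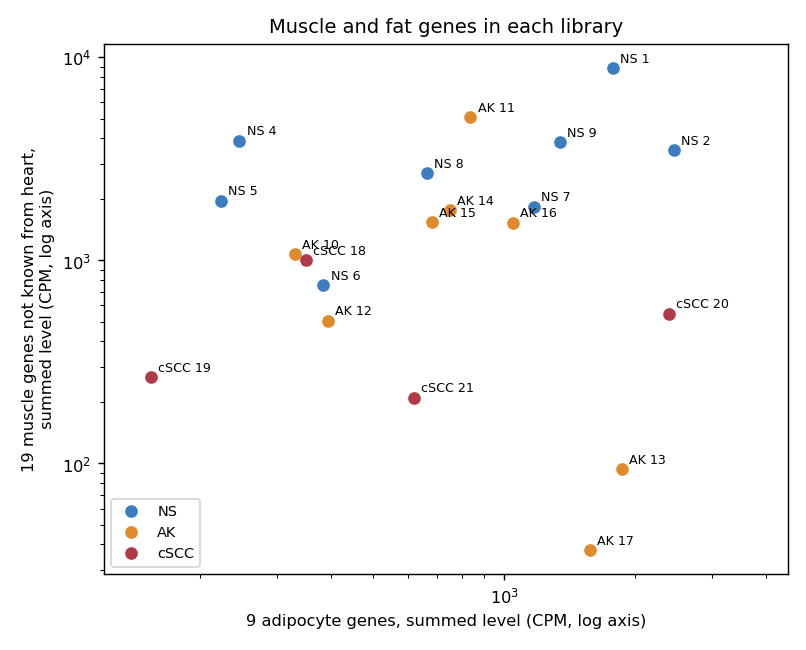
Summed CPM of the 19 muscle genes not known from heart against the summed CPM of 9 adipocyte genes in each of the 20 libraries, both on log axes, colored by group. AK 13 and AK 17 lie at the bottom right, with muscle sums of 93.5 and 37.5 CPM.

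Without cSCC 21, the muscle genes were lower in cSCC than in NS, and 19 of the 31 tested genes passed the test. The 5 largest changes were in Neb, with a log2 fold change of -3.80 ± 0.78 (adjusted p = 0.00660, edgeR), Trdn, triadin, with -3.69 ± 0.68 (0.00367), Ttn with -3.50 ± 0.70 (0.00580), Mybpc1, the slow-type myosin binding protein, with -3.40 ± 0.48 (0.000950), and Tcap with -3.00 ± 0.61 (0.00639), each on 3 cSCC and 8 NS. Neb was 13.9 times lower and Tcap 7.99 times lower. Ttn was 54.2, 12.7 and 53.5 CPM in cSCC 18, 19 and 20 against 171 to 1119 CPM (median 335) in NS. Trdn was 10.4, 7.03 and 6.83 CPM in the same libraries against 38.3 to 294 CPM (median 80.5) in NS. Mybpc1 was 10.4, 5.71 and 7.96 CPM against 42.3 to 152 CPM (median 81.0). For all 5 genes the 3 cSCC samples lay below every NS.

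In all, 19 of 31 members were called lower and 0 higher, where 7.24% of the 12317 genes tested were called lower and 6.97% higher. The log2 fold change was below 0 in 31 of 31 members and in 49.4% of all genes, with medians of -2.43 and 0.01. Here too the 31 values are not independent of one another. Of the genes also known from heart 8 of 13 were called lower, with a median of -1.99, and of the others 11 of 18, with a median of -2.49. By role, 5 of 7 thick filament genes, 4 of 5 thin filament genes, 6 of 9 Z-disc genes, 3 of 5 tested calcium genes and 1 of 5 metabolic genes passed. The metabolic gene was Pgam2 (-1.91 ± 0.56, adjusted p = 0.0354, edgeR), while Ckm had -1.20 ± 0.68 and an adjusted p of 0.259. Among the genes that did not pass were Acta1 (-1.66 ± 0.65, adjusted p = 0.104) and Myh4 (-3.39 ± 1.41, adjusted p = 0.123), whose NS samples were widely spread. For 8 members (Myh1, Mybpc1, Neb, Actn2, Ttn, Xirp2, Tcap and Trdn) the 3 cSCC lay below every NS, as they did for 8.02% of all genes, and for 0 members they lay above every NS, against 4.70% of all genes.

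This count rested on few samples. It was 6 without cSCC 19, 8 without cSCC 20, 12 without NS 4 and 12 without NS 9. Limma with voom called 3 genes lower and DESeq2 called 27, which included all 19. The summed level of the 32 genes was 1682 CPM in cSCC 18, 779 in cSCC 19 and 1371 in cSCC 20, against 1514 to 15832 CPM in NS, so cSCC 18 lay within the NS range. Fat genes were 349 and 154 CPM in cSCC 18 and 19 and 2390.4 CPM in cSCC 20, the library with lung transcripts. With hemoglobin genes left out of the table the count was again 19. The part of hemoglobin, lung and fat transcripts in the result was otherwise not tested.

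**Figure D3:**
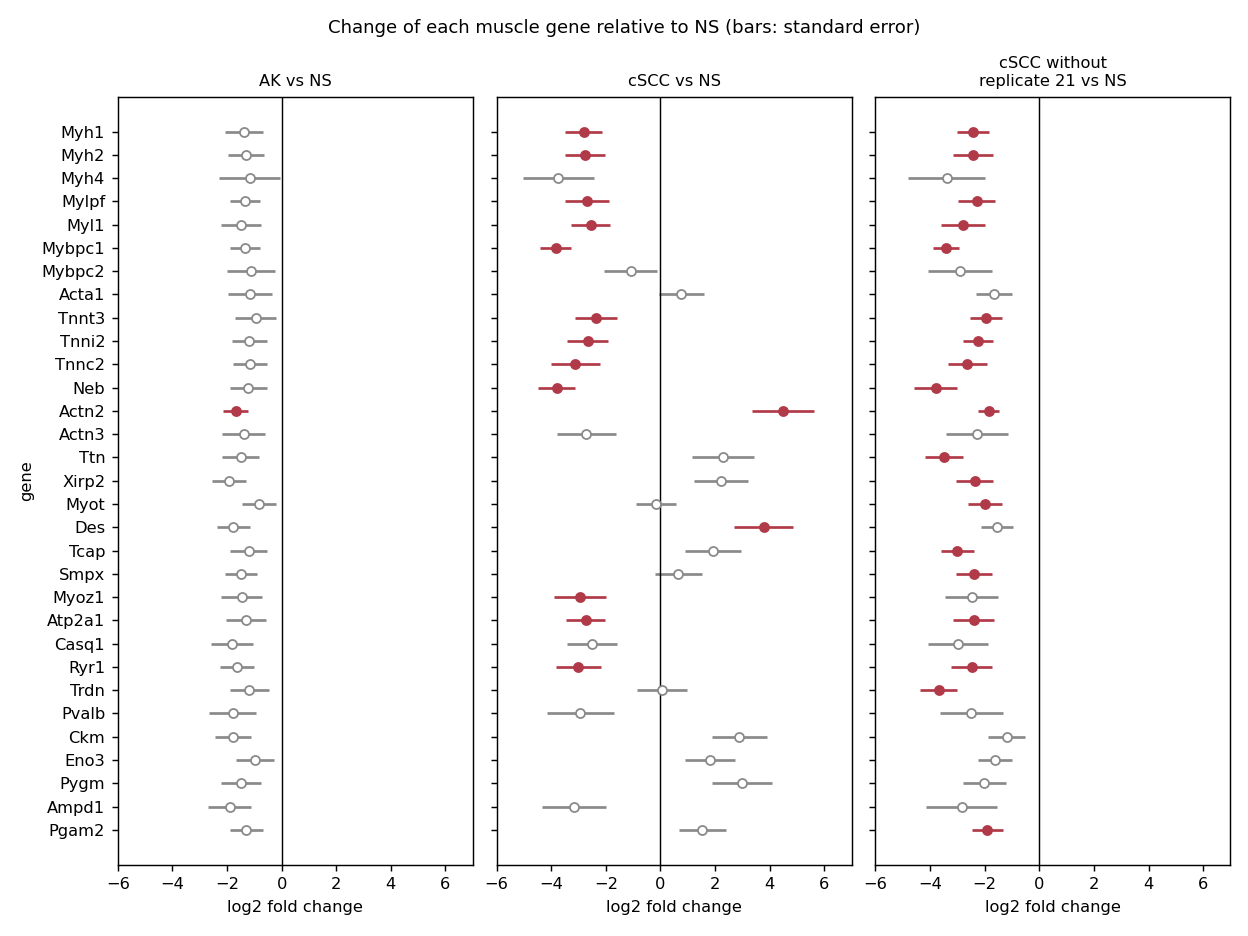
Log2 fold changes relative to NS of the 31 tested genes, as points with standard errors, for AK, for all 4 cSCC and for 3 cSCC without replicate 21, filled red where called. All points lie below 0 in AK and in cSCC without replicate 21, whereas with replicate 21 the 13 genes known from heart lie above 0 except Myot, and 12 others are called lower.

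In cSCC 21 the muscle genes parted along the line between heart and skeletal muscle. All 13 genes also known from heart were higher there than in any other of the 20 samples, with Ttn at 8506 CPM, Acta1 at 6859 CPM and Tcap at 2947 CPM. Of the 19 genes not known from heart, 14 were below every NS, among them Mylpf at 5.95 CPM, Tnnt3 at 6.12 CPM and Pvalb at 0.331 CPM. Myl1 (106 CPM), Mybpc2 (37.5 CPM), Casq1 (9.43 CPM) and Ampd1 (0.662 CPM) lay within the NS range, and Cacna1s (10.9 CPM) was above every NS. Summed, the 19 genes reached 211 CPM in cSCC 21 against 753 to 8861 CPM in NS. This was the lowest sum of the 4 cSCC samples.

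Heart transcripts were high together with the first set in cSCC 21 only. In the other cSCC the first set summed to 512 to 824 CPM, against 761 to 6971 CPM in NS. A list of 13 heart genes, from which Csrp3 of heart and slow muscle was left out, summed to 59515 CPM in cSCC 21, to 79.2 to 166 CPM in the other cSCC and to 9.15 to 44.4 CPM in NS. The highest in cSCC 21 were Actc1 at 15454 CPM, Tnnt2, cardiac troponin T, at 11563 CPM and Myh6, the alpha cardiac myosin, at 11153 CPM, while Myl7, the atrial light chain, was at 0. Of the summed counts of Myh1, Myh2, Myh4, Myh6 and Myh7 in cSCC 21, the skeletal genes Myh1, Myh2 and Myh4 made up 64 of 76596. In NS the same 3 genes made up 98.7% or more of that sum. Other myosin heavy chain genes, such as Myh8, were not part of it. Genes shared by slow fibers and heart, such as Myl3, Myl2 and Tnnc1, were at 5897, 3509 and 2591 CPM in cSCC 21 and at most 3.37, 3.65 and 1.80 CPM in NS. Among the fast and the cardiac or slow myosin heavy chains summed above, the NS counts were thus nearly all of fast fiber genes.

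**Figure D4:**
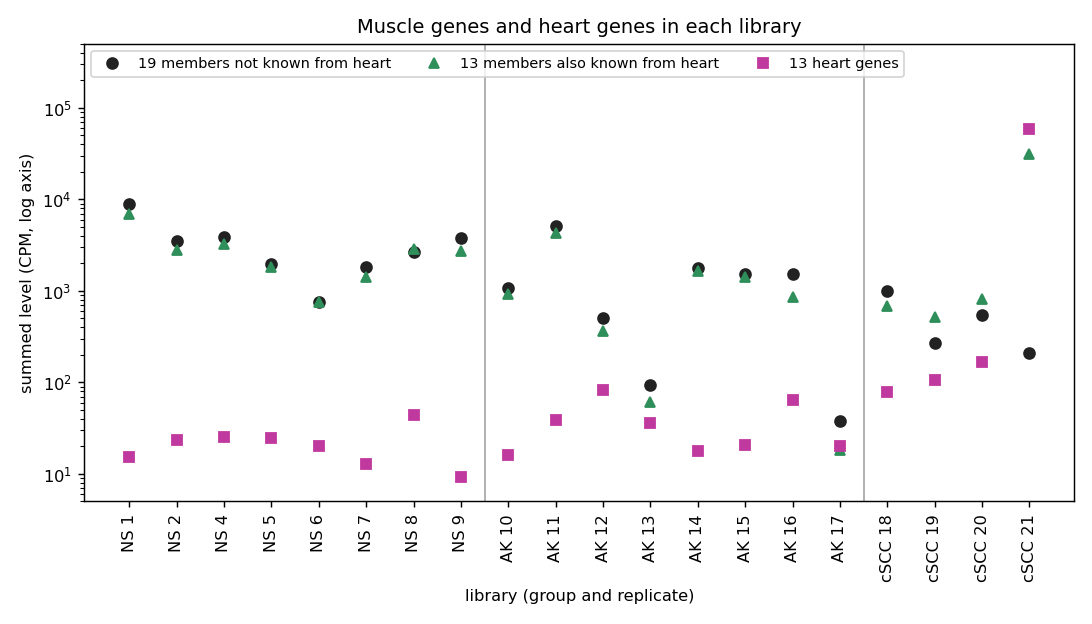
Summed CPM on a log axis in each of the 20 libraries for the 19 muscle genes not known from heart, the 13 muscle genes also known from heart, and 13 heart genes. Both muscle sums run side by side in NS and AK, and they part in cSCC 21 at 211 and 31381 CPM.

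With all 4 cSCC, the comparison with NS mixed both patterns. Actn2 (4.48 ± 1.14, adjusted p = 0.0159, edgeR) and Des, the intermediate filament of muscle (3.78 ± 1.09, 0.0267), were called higher. DESeq2 called 0 members higher and 16 lower, and limma 0 higher and 5 lower, so neither tool called Actn2 or Des higher. Without cSCC 21 their log2 fold changes were -1.86 ± 0.38 and -1.56 ± 0.58. Called lower were 12 genes, all of them not known from heart, and the largest changes were in Mybpc1 (-3.84 ± 0.57, adjusted p = 0.00150), Neb (-3.80 ± 0.68, 0.00319), Tnnc2, the calcium-binding troponin (-3.12 ± 0.90, 0.0267), Ryr1 (-3.00 ± 0.81, 0.0199) and Myoz1 (-2.95 ± 0.95, 0.0423). Of all 12097 genes tested 11.7% were called higher and 7.65% lower. For 3 members (Myh1, Mybpc1 and Neb) all 4 cSCC lay below every NS, as for 5.73% of all genes, and for 0 above, against 2.70%. The log2 fold change was below 0 in 19 of 31 members and in 43.1% of all genes. The number called lower was 6 without cSCC 19, 8 without cSCC 20 and 19 without cSCC 21, and the number called higher was 4 without cSCC 18, 19 or 20, 1 without NS 5 and 0 without cSCC 21. The median log2 fold change was 1.93 for the 13 genes known from heart and -2.79 for the 18 tested others.

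Against AK, all 4 cSCC gave 5 members called higher and 0 lower, where 16% and 8.34% of the 12032 genes tested were called higher and lower. The 5 were Actn2 (6.30 ± 1.35, adjusted p = 0.00600, edgeR), Des (5.68 ± 1.32, 0.00878), Ckm (4.81 ± 1.19, 0.0114), Pygm (4.61 ± 1.32, 0.0218) and Xirp2 (4.28 ± 1.21, 0.0208), all known from heart. Their log2 fold changes without cSCC 21 were -0.19 ± 0.81, 0.19 ± 0.93, 0.54 ± 0.88, -0.55 ± 1.14 and -0.46 ± 0.99 in that order. DESeq2 called 0 members higher and 2 lower, and limma 0 and 0. Without AK 11 the edgeR count was 9. The log2 fold change was below 0 in 17 of 31 members and in 42.7% of all genes, and for 0 members the 4 cSCC lay above or below every AK, against 3.33% and 6.84% of all genes. Without cSCC 21 edgeR called 0 members higher and 0 lower, where 6.90% and 7.83% of the 12139 genes tested were called, 1 member had an unadjusted p-value under 0.05, and DESeq2 and limma also called 0. The log2 fold change was then below 0 in 29 of 31 members and in 51.4% of all genes, from -2.66 (Neb) to 0.54 (Ckm), with a median of -1.08. That median was -0.45 without AK 11, -0.72 without cSCC 19, -1.57 without cSCC 18 and -0.22 with limma. For 0 members the 3 cSCC lay above or below every AK, against 5.04% and 8.43% of all genes. The comparisons with NS share the same 8 NS samples and the comparisons of cSCC share the same cSCC samples, so their results are not independent.

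Fast fibers come in glycolytic and more oxidative forms, and the shares of their genes were set side by side for each sample. The intervals given cover counting error alone and not the spread between tissues of a kind, so no test of a difference is given. Of the counts of Myh1, Myh2 and Myh4 together, Myh4, the chain of the fastest glycolytic fibers, made up 83.4% (95% interval 81.9 to 84.7) in NS 9 and 6.75% (95% interval 5.29 to 8.57) in NS 8. In NS 6, NS 7, NS 8, AK 10 and AK 16 its share was 10.5%, 7.11%, 6.75%, 6.68% and 13.2%. In NS 1, NS 2, NS 4, NS 5, AK 11, AK 14 and AK 15 it was 76.6%, 62.8%, 67.6%, 60.8%, 83.3%, 77.2% and 47.5%. No share fell between 13.2% and 47.5% in these 13 samples. Myh2, the chain of fast oxidative fibers, went the other way, at 25.0%, 31.0%, 31.6%, 25.5% and 22.8% in the 5 samples and 7.50% to 14.7% in the rest. These shares and the pairs below were chosen with the levels known and are a description.

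In both of the next gene pairs the same 5 samples were lowest. Actn3, the alpha-actinin of fast glycolytic fibers, made up 4.44%, 13.3%, 25.0%, 24.6% and 34.6% of the counts of Actn2 and Actn3 in NS 6, NS 7, NS 8, AK 10 and AK 16. In the other 8 samples its share ran from 46.7% (AK 15) to 77.9% (AK 11). The interval of AK 16, on 26 counts, was 19.4 to 53.8% and overlapped those of the higher samples. Mybpc2, the fast myosin binding protein, made up 6.25%, 7.05%, 2.74%, 14.4% and 5.49% of the counts of Mybpc1 and Mybpc2 in the same 5 samples. Elsewhere it ran from 17.8% (NS 2) to 45.5% (AK 14). The intervals of AK 10 (11.9 to 17.3%) and NS 2 (13.6 to 22.9%) overlapped, so this share had no clear gap. The 5 samples with the lowest share were the same in these 3 measures, among the 13 NS and AK samples with at least 20 counts in each. A further measure did not give the same set. The share of Casq1 in the counts of Casq1 and Trdn was lowest in NS 8 (4.19%), AK 16 (6.02%), AK 15 (9.73%), AK 10 (10.5%) and NS 7 (10.9%), so AK 15 was among the 5 and NS 6 (11.7%) was not, and NS 9 (14%) lay close. AK 12, AK 13 and AK 17 had too few counts. Low and high shares occurred in NS and in AK, and the labels give neither the mouse nor the exposure that could be set beside them.

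**Figure D5:**
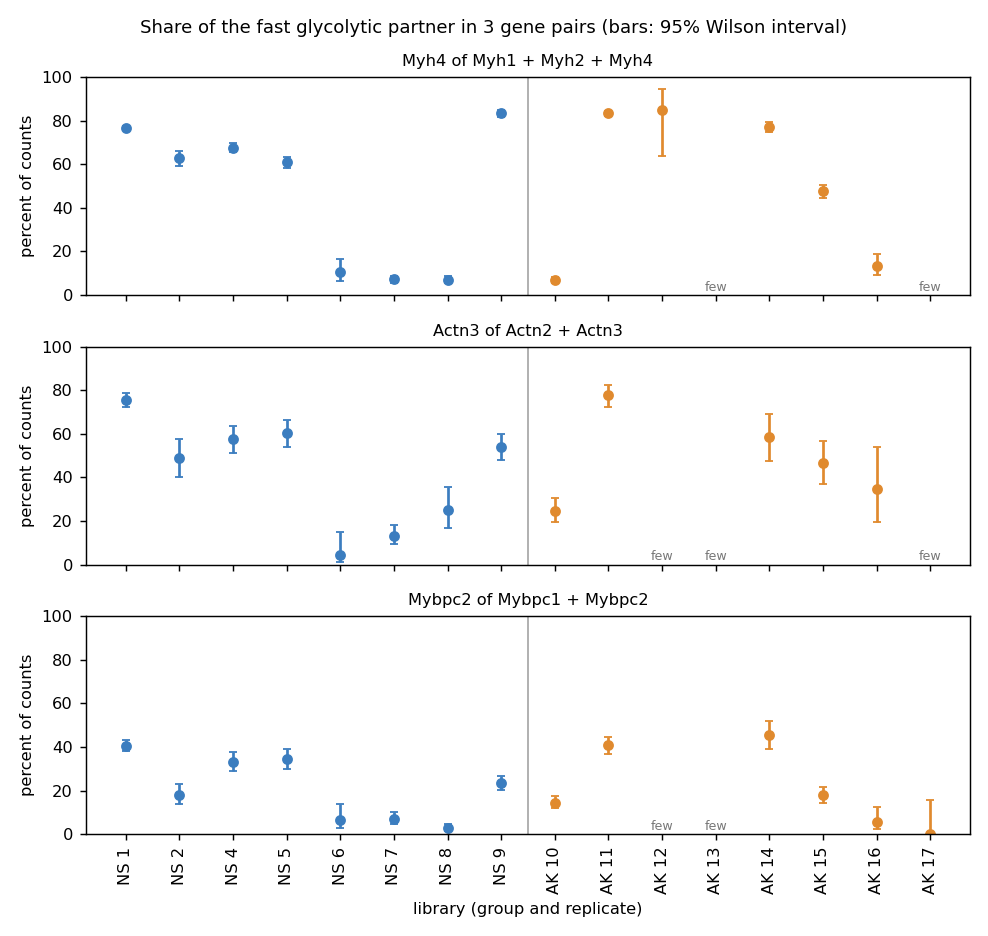
Percent of counts of the gene typical of glycolytic fast fibers in 3 gene sets for each NS (blue) and AK (orange) library, with 95% Wilson intervals, libraries under 20 counts being marked as few. NS 6, NS 7, NS 8, AK 10 and AK 16 have the lowest shares of the 13 libraries with enough counts in all 3 panels.

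Other lists of muscle genes were set beside the 32. Of 39 other genes of adult skeletal muscle, 4 of 30 tested were called lower in AK than in NS and 0 higher, against 2.38% and 2.26% of all genes, with a median log2 fold change of -1.17. Among them were Klhl41, a sarcomere-stabilizing protein (-2.22 ± 0.52, adjusted p = 0.0255, edgeR) and the respiratory chain subunits Cox7a1 (-2.10 ± 0.48, 0.0231) and Cox8b (-1.87 ± 0.39, 0.0190). Cox7a1 and Cox8b are also known from heart and brown fat. Without cSCC 21, 10 of 35 tested were called lower in cSCC than in NS, against 7.24% of all genes, with a median of -1.98. Of genes of developing or regenerating muscle, Myf6, a regulator kept in adult fibers, was 10.7 to 72.2 CPM in NS, while Myog, Myod1, Myf5 and Pax7 were at or below 4.07 CPM in every sample. No gene of that list was called in AK against NS by edgeR (0 of 4 tested, 0 at an unadjusted p-value under 0.05), against 2.38% lower and 2.26% higher of all genes. In cSCC without cSCC 21 against NS, 2 of 5 tested were called lower and 1 higher, against 7.24% and 6.97% of all genes. The neonatal myosin Myh8 was 3.38 to 44.7 CPM in NS and 0 to 22.8 CPM in AK.

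The members' own patterns over the 16 NS and AK samples were alike. Spearman's rho of a member with the mean log2(CPM + 1) of the 32 genes, which includes the member, had a median of 0.921 and was lowest for Myh1 (0.574) and Actn2 (0.662) and highest for Tcap (0.985). Among 11646 genes outside the list, the closest patterns were those of Ppp1r3a, the glycogen-targeting phosphatase subunit of muscle (rho = 0.968), Itgb1bp2 (0.965), the intermediate filament Synm (0.962), Ano5 (0.954) and Slc25a4, the mitochondrial ADP/ATP carrier of muscle and heart (0.953). The next 10 were Adssl1, Ldb3, Tpm1, Ddit4l, Shisa2, Lsmem1, Myh8, Cmya5, Mlf1 and Myom1, down to 0.924. Of these 15, Ldb3, Myom1 and Myh8 were in a list of muscle genes used here and 12 were in none. Tpm1, tropomyosin, had 511 CPM in NS and 222 CPM in AK on average. All points share libraries and depth, the values are a description over 16 samples, and the order of the 15 changed with the measure of likeness.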

How the data were processed

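The authors deposited a table of raw read counts for 22090 gene symbols in 20 samples, without normalization. Per the labels' processing notes, Trimmomatic 0.36, HISAT2 2.0.5 and featureCounts 1.5.2 were used with builds mm9 and hg19, while the paper's methods name GRCm38 and StringTie, and the sources do not settle which made the counts. Strand use in counting was not given in the sources used here. The members and gene lists were chosen with earlier results of these data known.

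Levels in CPM used TMM factors of all 20 samples together (edgeR 4.0.16, R 4.3.3). Each comparison used only the groups compared, genes kept by filterByExpr and edgeR's quasi-likelihood test, and p-values were adjusted over all genes tested. Standard errors were derived from each log2 fold change and its F statistic. Levels per length used exon lengths of GENCODE release M21. In each role group the 2 genes with the highest level per length were given by sample, and for each comparison every called member where 10 or fewer were called, otherwise the 5 with the largest fold change in each direction. Members named beyond this rule, the gene pairs and the other genes called were chosen with their values known. The likeness search took the 15 genes with the highest rho. Shares have 95% Wilson intervals.

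On simulated data with log2 fold changes of 2, the test recovered 94.4% of 196 genes in AK vs NS (6 false calls), 43.4% of 196 in cSCC vs NS (1), 51.8% of 199 in cSCC vs AK (1), 50.5% of 192 in cSCC without 21 vs NS (5) and 66.3% of 196 in cSCC without 21 vs AK (4). The changed genes were drawn at random from all genes tested. Recovery was not measured for the members, which varied widely within groups, so these rates do not apply to them. No 2 libraries of a group matched within sampling noise (62 pairs, smallest chi-square per degree of freedom 11.3). The labels name no batch. Alternatives were DESeq2 1.42.0, limma 3.58.1 with voom and sample weights, other scalings and filters, 1 fit of all samples, no fold change limit, and each sample left out in turn. Leaving out hemoglobin genes, or cSCC 20 with cSCC 21, was added after the data were examined. Figures used matplotlib 3.10.9 in Python 3.11.15. Human and single-cell data of the study were not analysed here, and 1 called gene of another muscle list is not reported here.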

Additional observations from a re-analysis of the deposited data

Results flagged for a closer look

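In 9 of 99 groups of 4 or 8 samples tested, the highest sample of a gene lay far from the others of its group by Dixon's criterion, which chance meets in about 1 group in 20. In 7 of them that sample was cSCC 21, on the log2(CPM + 1) scale, with 12.74 for Acta1, 11.06 for Actn2, 10.94 for Des, 8.63 for Trdn, 10.50 for Ckm, 11.46 for Eno3 and 3.57 for Cacna1s. The first 6 are also known from heart, and Cacna1s had no counts in the other 3 cSCC. Myh2, the oxidative fast myosin, stood apart in cSCC 18, at 4.66 on the same scale. Cacna1s stood apart in AK 15, at 0.21, which was 1 count, all other AK being at 0.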

How the results depend on the processing

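The count of called members in AK vs NS (1) was 4 with limma, 0 with all samples in 1 fit and 0 to 6 with 1 library left out. In cSCC vs NS (14) it was 16 with DESeq2, all lower, 5 with limma, all lower, 8 without cSCC 20 and 21, and 10 to 19 with 1 library left out. In cSCC vs AK (5) it was 2 with DESeq2, both lower, 0 with limma, 11 with all samples in 1 fit, 0 without cSCC 20 and 21, and 0 to 9 with 1 library left out, 0 being without cSCC 21 and 9 without AK 11. In cSCC without 21 vs NS (19) it was 27 with DESeq2, 3 with limma, 4 with all samples in 1 fit and 6 to 19 with 1 library left out. Without cSCC 21 vs AK it was 0 under every alternative run. The cause of these changes was not tested. The fold changes of all members named in AK vs NS and in cSCC without 21 vs NS kept their direction under every alternative run. Reversed were Des (-0.61) and Actn2 (-0.85) in cSCC vs NS with limma, the same genes without cSCC 20 and 21 (-2.09 and -2.19) and without cSCC 21 (Des -1.56 to 4.19, Actn2 -1.86 to 4.90 over libraries left out), and, in cSCC vs AK without cSCC 20 and 21, Des (-0.29), Xirp2 (-0.27), Actn2 (-0.47) and Pygm (-1.03). Without cSCC 21 alone, log2 fold changes against AK were below 0 for Xirp2 (-0.46 to 4.83 over libraries left out), Actn2 (-0.19 to 6.70) and Pygm (-0.55 to 5.12).

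Library size alone moved the median of all genes by -0.10 in AK vs NS, -0.31 in cSCC vs NS, -0.26 in cSCC vs AK, -0.28 in cSCC without 21 vs NS and -0.14 in cSCC without 21 vs AK. It took the share of higher among all called genes from 48.7% to 26.8%, 60.4% to 31.9%, 65.8% to 43.0%, 49.1% to 22.1% and 46.8% to 29.2% in the same order, and upper quartile scaling to 32.7% in AK vs NS and 57.5% in cSCC without 21 vs AK. All genes called in AK vs NS numbered 542, 1049 with DESeq2, 1043 with limma and 9 with all samples in 1 fit. Of the 15 genes most alike, 6 were shared with the 15 by Pearson's r and 5 with the 15 in NS alone. No paired analysis was possible because no replicate number is shared by samples of different groups and the labels name no mouse. Low counts limit AK 12 and cSCC 20, where members under 3 counts could not be told from 0.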
